A study of Mus musculus with 24 samples.

Results

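The comparison described here asked which genes answered the proteasome inhibitor MG132 differently in immortalized and in senescent mouse fibroblasts, as the response of immortalized cells minus the response of senescent cells on a log2 scale. It used 12 of the 24 libraries of the study, all those of these 2 cell-states, and every gene of the table rather than a chosen set. Of 19880 genes, 13489 had at least 1 TPM (transcript abundance corrected for gene length and for the library's total) in at least 3 libraries and were tested. The remaining 12 libraries of the study are of proliferating and of quiescent fibroblasts under the same 2 treatments, and poly(A) RNA was measured in all of them.

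The cells came from the tails of male C57BL/6J mice aged 4 weeks, and a single starting culture gave rise to every cell-state. Immortalized fibroblasts had received the SV40 T antigen by retrovirus and were used up to passage 10. Senescent fibroblasts had been passaged at low density until the culture no longer expanded and were then kept for at least 7 days. Both cell-states received 10 µM MG132 or 0.1% DMSO for 8 h, which gave 4 groups of 3 libraries (immortalized MG132, immortalized DMSO, senescent MG132 and senescent DMSO). The labels do not say whether the 3 libraries of a group came from separate cultures, so every p-value here rests on the spread among libraries, which may be technical.

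The proteasome degrades proteins tagged with ubiquitin, and MG132 blocks its catalytic sites. Cells whose proteasome is blocked accumulate damaged proteins and are known to induce chaperones through heat shock factor 1 (HSF1) and proteasome subunits through NRF1. Immediate early genes such as Fos are transcribed within minutes of a stimulus through MAP kinases and the serum response factor. The T antigen binds p53 and RB, the regulators on which the arrest of senescent cells largely rests.

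The libraries mostly fell with their labels. Each of the 12 correlated best with another library of its own group, and the lowest Spearman correlation within a group ran from 0.961 to 0.991. Immortalized DMSO replicate 3 reached 0.979 with a library of another group, above its lowest value within its own group (0.973). Under DMSO, mean Mki67, a marker of cycling cells, was 31.6 scaled TPM in immortalized and 0.741 in senescent libraries, and mean Cdkn1a, which encodes the cyclin-dependent kinase inhibitor p21, was 365 in immortalized and 1024 in senescent libraries. The DMSO library of immortalized replicate 2 stood apart for cycling genes, with 73.2 scaled TPM of Mki67 against 13 and 8.65 in the other 2. The summed level of 13 fibroblast markers was 21700 to 27800 in immortalized MG132, 16600 to 20100 in immortalized DMSO, 21700 to 24100 in senescent MG132 and 21600 to 29000 in senescent DMSO libraries. The sum of 11 macrophage markers was 34.6 to 43.6 in immortalized MG132, 12 to 22 in immortalized DMSO, 70.1 to 88.1 in senescent MG132 and 22.7 to 32.8 in senescent DMSO libraries, and 7 of the 11 were under 1 in all 12. The sum of 8 endothelial markers was 29.3 to 34.7, 13.1 to 29, 15.6 to 22 and 25.5 to 32.8 in the same order of groups, and 2 of the 8 were under 1 in all 12. None of these markers was at 0 in all 12 libraries, and their part in the results was not tested. Mitochondrial transcripts took 3.66% to 6.76% of the signal.

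The responses of the 2 cell-states differed for a large share of the transcriptome. The response was higher in immortalized than in senescent cells for 2542 genes (18.8% of those tested) and lower for 2646 (19.6%), which gives 5188 genes (38.5%) by limma with a Benjamini-Hochberg adjusted p under 0.05. On scaled TPM the largest differences were one-sided. The higher response was in immortalized cells for 442 of the 501 called genes that differed by more than 2 on the log2 scale. This count was not made on the other 2 scales described below. Without the DMSO library of immortalized replicate 2, 5051 genes were called, 2516 higher and 2535 lower. Taken alone, MG132 changed 7185 genes (53.3%) in immortalized cells, of which 3592 (26.6%) rose and 3593 (26.6%) fell. It changed 6214 genes (46.1%) in senescent cells, of which 3056 (22.7%) rose and 3158 (23.4%) fell. The standard error of a difference had a median of 0.25 on the log2 scale over all genes tested.

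These values are scaled TPM, in which each library was divided by 1 factor so that the median ratio of genes to their reference was equal in all libraries. The factor was 0.62 to 0.69 in immortalized MG132 libraries, against 1.06 to 1.23 in the libraries of the other 3 groups. On this scale the difference of responses had a median of -0.01 over all genes. On TPM as deposited the median was -0.60, and 1047 genes were higher and 6580 lower in immortalized cells. With the authors' division by the library total undone it was -0.46, with 1235 genes higher and 5449 lower. A higher or lower response therefore means relative to the typical gene of the library, and the counts of gene lists are given on all 3 scales. A list's count or median difference on each scale is to be read against that of all genes on that scale. In bulk RNA, fewer cells of a type and less RNA per cell cannot be told apart.

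**Figure D1:**
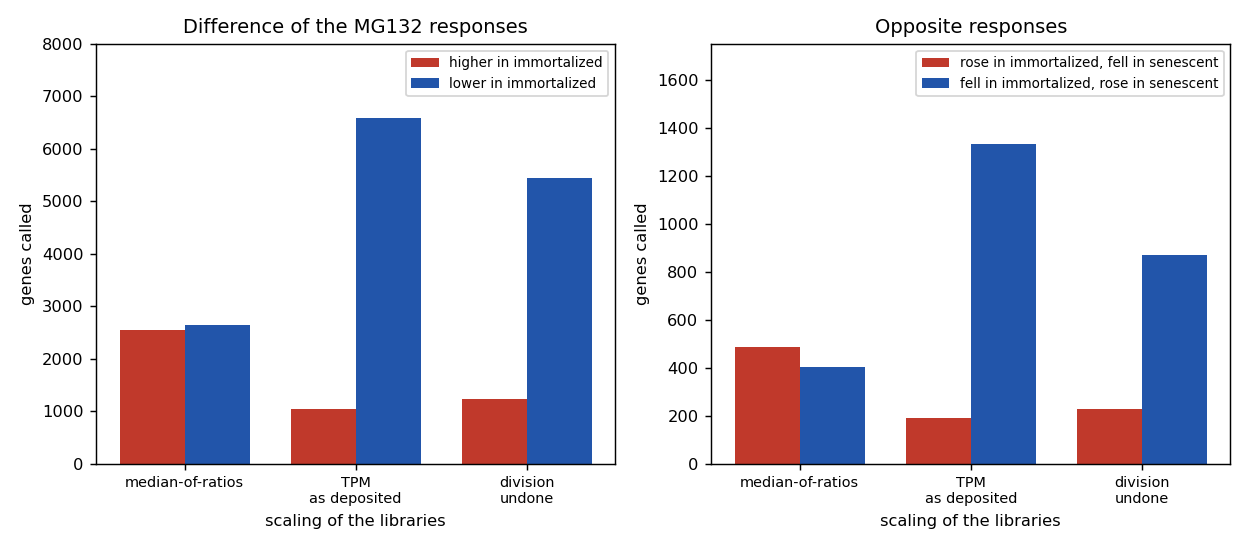
Number of genes with a called difference of responses (left) and with called opposite responses (right) on each of the 3 scales. Genes higher in immortalized cells number 2542 on scaled TPM, 1047 on TPM as deposited and 1235 with the division undone, and genes lower number 2646, 6580 and 5449.

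MG132 moved 888 genes (6.58%) in opposite directions. In 485 of them (3.60%) the transcript rose in immortalized and fell in senescent cells, with a median log2 fold change of 0.89 in immortalized and -0.84 in senescent cells. In 403 (2.99%) it fell in immortalized and rose in senescent cells, with medians of -0.61 and 0.53. The opposite rise in immortalized cells held on all 3 scales for 188 of the 485 genes, and the opposite fall for 265 of the 403. Of the other called genes, 1018 rose and 1025 fell in immortalized cells only, 709 rose and 666 fell in senescent cells only, 225 rose in both and by more in immortalized cells, 121 rose in both and by less, 318 fell in both and by more and 73 fell in both and by less.

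**Figure D2:**
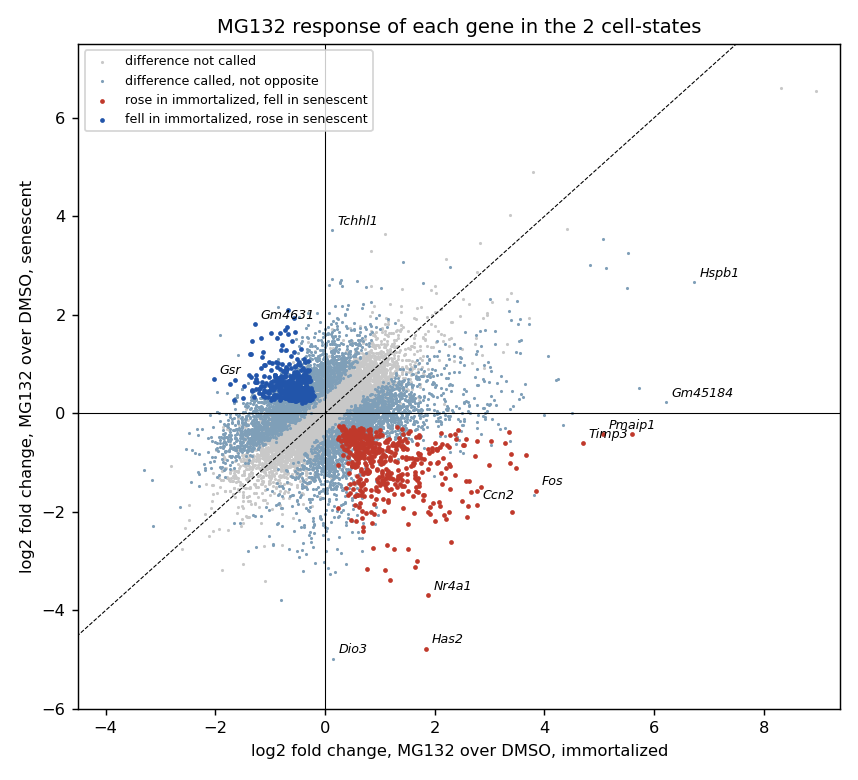
Log2 fold change of MG132 over DMSO in immortalized (x axis) and senescent (y axis) libraries, 1 point per gene for 13489 genes, with the line of equal response dashed. The 485 genes that rose in immortalized and fell in senescent cells lie at the lower right and the 403 with the reverse pattern at the upper left. Nr4a1, at 1.88 and -3.69, and Gsr, at -2.02 and 0.69, are among those labelled.

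Genes induced by growth factors and MAP kinases gave the widest separation. Of 26 immediate early genes tested, 22 had a higher response in immortalized cells and 1 a lower one, against 18.8% and 19.6% of all genes, and 12 were opposite. As deposited, 19 were higher and 3 lower, and with the division undone 19 and 2. Their median response was 1.37 in immortalized and -1.22 in senescent cells, with 19 that rose and 1 that fell in immortalized and 4 that rose and 17 that fell in senescent cells. The median difference was 2.40 (1.65 on TPM as deposited and 1.82 with the division undone), against -0.01 over all genes. The 1 gene with the lower response was Srf, which encodes serum response factor. It gave -0.69 in immortalized and 0.05 in senescent cells (difference -0.74, SE 0.21, limma adjusted p = 0.00969) and was lower on all 3 scales.

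Nr4a1, an orphan nuclear receptor encoded on chr15:101254269-101274795 (GRCm38), stood at 29.4, 30.6 and 32.3 scaled TPM in immortalized MG132 libraries and at 7.62, 7.77 and 7.5 in immortalized DMSO libraries. In senescent cells it stood at 7.03, 7.93 and 6.07 under MG132 and at 95.7, 102 and 110 under DMSO. MG132 and DMSO libraries did not overlap in either cell-state, and the log2 fold change was 1.88 in immortalized and -3.69 in senescent cells (difference 5.57, SE 0.13, limma adjusted p = 1.47e-16). Fos, the AP-1 subunit, reached 58.7, 51.8 and 56.9 scaled TPM in immortalized MG132 libraries against 2.9, 3.19 and 2.7 under DMSO. It was at 4.63, 4.02 and 4.55 in senescent MG132 libraries against 12.9, 19 and 13.8 under DMSO. Again the treatments did not overlap in either cell-state, and the difference was 5.42 (SE 0.20, limma adjusted p = 1.68e-13).

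The same opposite call on all 3 scales was made for Egr1 (2.66 in immortalized and -1.59 in senescent cells) and Egr2 (1.88 and -2.01), both zinc finger transcription factors, for the nuclear receptor Nr4a2 (1.51 and -2.25) and for the AP-1 subunit Junb (3.36 and -0.39). Fosl2, another AP-1 subunit, gave 0.69 and -2.31 and fell only in senescent cells on the other 2 scales. Klf2, a transcription factor of the Krüppel-like family, fell by 2.80 in senescent cells and did not pass the test in immortalized cells (0.01, limma adjusted p = 0.987). Arc, which is outside the list and known for its role at synapses, rose in both, by 4.24 in immortalized and 0.70 in senescent cells.

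Inhibitors that act back on MAP kinases followed the same pattern. Of 17 tested, 15 had the higher response in immortalized cells and none the lower one, against 18.8% and 19.6% of all genes. The median response was 1.07 in immortalized and -0.89 in senescent cells. On TPM as deposited 9 were higher and 1 lower, and with the division undone 9 and none. Dusp4, a phosphatase of MAP kinases, was at 109, 94.9 and 85.3 scaled TPM in immortalized MG132 libraries against 7, 9.75 and 6.63 under DMSO, and at 24.4, 15.3 and 18 in senescent MG132 libraries against 35.6, 47 and 44 under DMSO. No MG132 library overlapped a DMSO library of its cell-state, and the difference was 4.59 (SE 0.28, limma adjusted p = 3.33e-10). Dusp6, which acts on ERK, gave 2.26 in immortalized and -2.01 in senescent cells, and Spry2, an inhibitor of receptor tyrosine kinase signalling, 1.65 and -1.58. Dusp2 rose in immortalized cells only, to 24, 41.1 and 30.9 scaled TPM against 0.522, 0.435 and 0.297 under DMSO, and was at or below 0.271 in all 6 senescent libraries.

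**Figure D3:**
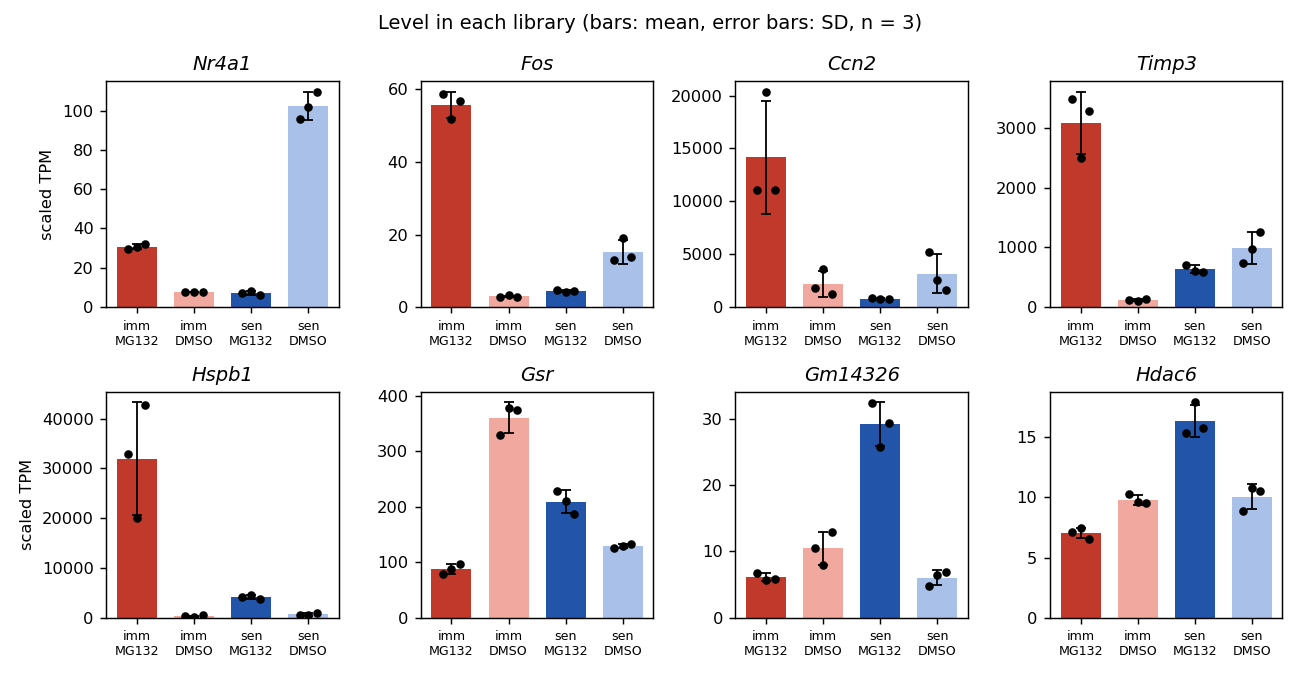
Scaled TPM of 8 genes in each of the 12 libraries (points), with group means as bars starting at 0 and SD as error bars (n = 3). Nr4a1, Fos, Ccn2 and Timp3 are higher with MG132 in immortalized and lower in senescent libraries, Gsr, Gm14326 and Hdac6 show the reverse, and Hspb1 is higher with MG132 in both.

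The matrix and its regulators also separated. Of 24 genes of the TGF-beta, YAP and myofibroblast list, 16 had the higher response in immortalized cells, none the lower one and 8 were opposite. Over all genes 18.8% were higher and 19.6% lower. The medians of the list were 0.52 in immortalized and -0.94 in senescent cells. The scale as deposited gave 8 higher and the undone division 10, and none was lower on either. Ccn2, a matricellular growth factor and a common readout of YAP, was at 11060, 20360 and 11090 scaled TPM in immortalized MG132 libraries and at 1761, 3594 and 1223 under DMSO. It was at 830, 764 and 724 in senescent MG132 libraries and at 5181, 2597 and 1613 under DMSO. The treatments did not overlap within either cell-state, and the difference was 4.63 (SE 0.63, limma adjusted p = 9.57e-06). Smad7, which inhibits TGF-beta receptors, gave 1.75 in immortalized and -1.01 in senescent cells. Amotl2, a regulator of YAP, gave 0.87 and -2.74, and fell in senescent cells only on the other 2 scales.

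Of 33 matrix and collagen genes, 19 had the higher response in immortalized cells and none the lower one, against 18.8% and 19.6% of all genes. The median difference was 0.84, and 0.17 on TPM as deposited. As deposited 8 were higher and 4 lower, and with the division undone 10 and none. Tenascin C, Tnc, gave 1.61 in immortalized and -1.01 in senescent cells, Thbs2 gave 2.28 and -1.07, and the basement membrane collagen Col4a1 gave 1.30 and -0.66. Timp3, an inhibitor of matrix proteases, was at 3484, 2496 and 3277 scaled TPM in immortalized MG132 libraries against 114, 106 and 130 under DMSO, and at 709, 600 and 595 in senescent MG132 libraries against 730, 978 and 1259 under DMSO. The treatments did not overlap in either cell-state, and the difference was 5.32 (SE 0.26, limma adjusted p = 6.33e-12). Among 22 matrix proteases and their inhibitors, 10 had the higher response in immortalized cells and none the lower one on scaled TPM. Over all genes the shares were 18.8% and 19.6%. On each of the other 2 scales 7 were higher and 3 lower. Relative to all genes, their median difference was 1.18 on scaled TPM, 1.07 as deposited and 1.10 with the division undone.

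Has2, which makes hyaluronan, had the largest difference of the genes that rose in immortalized and fell in senescent cells, by the naming rule. It was at 53, 105 and 53.9 scaled TPM in immortalized MG132 libraries against 18.2, 29.8 and 10.6 under DMSO. It was at 2.97, 2.23 and 3.36 in senescent MG132 libraries against 168, 113 and 59.1 under DMSO. The difference was 6.62 (SE 0.72, limma adjusted p = 5.99e-07), and on TPM as deposited the fall in senescent cells was called and the rise in immortalized cells was not.

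Signals for development and patterning mostly fell in senescent cells. Of 25 Notch, Wnt and Hedgehog genes, 1 rose and 16 fell in senescent cells, and 9 rose and 6 fell in immortalized cells. The difference was called higher for 15 and lower for none, against 18.8% and 19.6% of all genes, with a median of 1.43. On each of the other 2 scales 12 were higher and 3 lower. The Wnt ligand Wnt5a was at 23.2, 29.3 and 21.2 scaled TPM in immortalized MG132 libraries against 16.9, 21.3 and 13.8 under DMSO, and at 8.11, 5.95 and 6.02 in senescent MG132 libraries against 41.4, 42.4 and 34.9 under DMSO. Only the senescent libraries were separated by treatment (difference 2.90, SE 0.31, limma adjusted p = 5.95e-07). The Notch ligand Jag1 rose by 2.53 in immortalized cells and gave -0.15 in senescent cells. Prrx1, a homeobox gene of mesenchymal cells from the list of fibroblast markers, fell by 2.33 in senescent cells and gave 0.03 in immortalized cells, where it also fell on the other 2 scales.

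Targets of p53 divided between the cell-states. Of 33 tested, 15 had the higher response in immortalized cells and 3 the lower one, 8 were opposite with the rise in immortalized cells and 1 the other way. The counts depend on the scale, with 10 higher and 9 lower on TPM as deposited and 11 and 7 with the division undone. Of all 13489 genes, 1047 were higher and 6580 lower as deposited, and 1235 and 5449 with the division undone. Relative to all genes, the median difference of the list was 0.69 on scaled TPM, 0.80 as deposited and 0.78 with the division undone. In immortalized cells 15 rose and 6 fell, and in senescent cells 7 rose and 13 fell. Mdm2, the ubiquitin ligase of p53, gave 1.35 in immortalized and -0.49 in senescent cells on scaled TPM and was opposite on all 3 scales. Btg2, which restrains proliferation, was at 74.8, 82.5 and 69.6 scaled TPM in immortalized MG132 libraries against 11.6, 9.57 and 9.52 under DMSO, and at 24.5, 25.1 and 31.1 in senescent MG132 libraries against 37.3, 47.8 and 36.5 under DMSO. The treatments were separated in both cell-states, with a difference of 3.35 (SE 0.25, limma adjusted p = 3.33e-09).

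Cdkn1a was at 1495, 1532 and 1647 scaled TPM in immortalized MG132 libraries against 415, 294 and 386 under DMSO, and at 899, 820 and 904 in senescent MG132 libraries against 927, 1076 and 1070 under DMSO. It rose by 2.11 in immortalized cells, and the change of -0.23 in senescent cells did not pass the test (limma adjusted p = 0.207). Sesn1, a sestrin that restrains growth signalling, went the other way, with -0.48 in immortalized and 0.54 in senescent cells. The transcript of p53 itself, Trp53, fell by 0.44 in immortalized cells and gave 0.20 in senescent cells (limma adjusted p = 0.0707).

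Genes that set the threshold for cell death were part of this group. Pmaip1, which encodes the BH3-only protein NOXA, was at 419, 354 and 430 scaled TPM in immortalized MG132 libraries against 11.8, 9.14 and 11.9 under DMSO, and at 83.4, 79.9 and 86.9 in senescent MG132 libraries against 99.7, 109 and 130 under DMSO. The fall in senescent cells was small (-0.42, limma adjusted p = 0.0367), the treatments did not overlap, and the difference was 5.50 (SE 0.23). The anti-apoptotic Bcl2l1 also rose in immortalized cells, by 0.70, and fell by 1.41 in senescent cells, while on the other 2 scales it fell in senescent cells only. The BH3-only gene Bbc3 fell by 1.84 in senescent cells and gave 0.05 in immortalized cells, where it also fell on the other 2 scales. Of 15 BCL2 family genes, 6 had the higher and 3 the lower response in immortalized cells on scaled TPM. These 3 lower genes are a share close to the 19.6% of all genes. On each of the other 2 scales 4 were higher and 6 lower. Relative to all genes, the median difference of the list was 0.42 on scaled TPM, 0.30 as deposited and 0.33 with the division undone.

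HSF1 targets, which include the heat shock chaperones, rose in both cell-states, and on scaled TPM most of them rose by more in immortalized cells. Of 24 HSF1 targets, 23 rose in immortalized and 22 in senescent cells and none fell, with medians of 2.61 and 1.54. The difference was called higher for 16 and lower for none, with a median of 1.38. This count rests on the scale, since 6 were higher and 3 lower on TPM as deposited and 8 were higher and none lower with the division undone. Relative to all genes, the median difference was 1.39 on scaled TPM, 1.22 as deposited and 1.25 with the division undone. The subunits of the CCT chaperonin, a folding chamber for actin and tubulin, moved less, with 10 of 14 rising in immortalized and 5 in senescent cells. On scaled TPM 3 differences were higher, against 8 lower and none higher on TPM as deposited and 4 lower and none higher with the division undone. Relative to all genes, the CCT median difference was 0.31 on scaled TPM, 0.14 as deposited and 0.17 with the division undone. The small heat shock protein gene Hspb1 was at 32980, 20050 and 42660 scaled TPM in immortalized MG132 libraries against 290, 179 and 452 under DMSO, and at 4173, 4624 and 3761 in senescent MG132 libraries against 484, 557 and 1047 under DMSO. No libraries overlapped within a cell-state, and the log2 fold change was 6.73 in immortalized and 2.67 in senescent cells (difference 4.06, SE 0.72, limma adjusted p = 0.000182). For the inducible HSP70 gene Hspa1a the responses of 8.96 and 6.54 were not called different (difference 2.42, SE 1.14, limma adjusted p = 0.1).

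Single genes of other stress pathways rose in both cell-states and by more in immortalized cells. The autophagy receptor Sqstm1 rose by 3.10 in immortalized and 1.41 in senescent cells. Heme oxygenase Hmox1, induced by NRF2, rose by 4.06 in immortalized and 1.16 in senescent cells. The NRF2 list as a whole was mixed, with 14 of 24 rising and 2 falling in immortalized and 8 rising and 1 falling in senescent cells. It had 7 higher and 2 lower differences, and 3 and 7 on each of the other 2 scales. Relative to all genes, its median difference was 0.40 on scaled TPM, 0.25 as deposited and 0.28 with the division undone. Proteasome subunit genes rose in both cell-states with medians of 0.97 in immortalized and 0.84 in senescent cells for 14 genes of the 20S core and of 1.12 and 0.86 for 18 of the 19S regulator. The difference was called for 3 of the 14 (2 higher and 1 lower in immortalized cells) and 5 of the 18 (all higher). On TPM as deposited 7 and 10 were called, and with the division undone 3 and 8, and all of them were lower. On those scales 6580 and 5449 of all 13489 genes were lower. Relative to all genes, the median difference of the 20S core was 0.18 on scaled TPM, 0.017 as deposited and 0.047 with the division undone. For the 19S regulator it was 0.18, 0.0085 and 0.039. The phosphatase subunit Ppp1r15a, which restores translation after stress, rose by 2.28 in immortalized and by 2.97 in senescent cells, and its difference of -0.69 (SE 0.24, limma adjusted p = 0.0262) lost the call in 4 of 12 fits that each left out 1 library (-0.64 without immortalized DMSO replicate 3, -0.62 without immortalized MG132 replicate 2, -0.61 without senescent DMSO replicate 2 and -0.63 without senescent MG132 replicate 2, with adjusted p from 0.0598 to 0.0686).

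Promoter sequences of Hspe1, Egr2 and Dusp5 are shown because each holds a motif searched for in its list and because these genes represent the rise common to both cell-states (Hspe1) and the opposite response (Egr2 and Dusp5). Hspe1, the mitochondrial cochaperonin, rose by 2.75 in immortalized and 1.21 in senescent cells (difference 1.55, called on scaled TPM and on neither of the other scales), and Dusp5, a phosphatase of ERK, gave 1.15 and -0.68. Each line holds the 150 bases before the transcription start on the plus strand from RefSeq (GRCm38.p6). Capitals mark the heat shock element in Hspe1, from 89 to 72 bases before the start, the CArG box bound by serum response factor in Egr2, from 72 to 63 bases, and 2 adjacent CArG boxes in Dusp5, from 82 to 63 bases.
Hspe1 (chr1:55087998-55088147): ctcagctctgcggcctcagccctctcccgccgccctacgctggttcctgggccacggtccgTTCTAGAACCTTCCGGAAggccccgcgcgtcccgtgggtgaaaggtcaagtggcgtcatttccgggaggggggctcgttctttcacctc
Egr2 (chr10:67537719-67537868): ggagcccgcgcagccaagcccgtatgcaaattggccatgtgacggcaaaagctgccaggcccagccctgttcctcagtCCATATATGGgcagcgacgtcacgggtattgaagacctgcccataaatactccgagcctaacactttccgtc
Dusp5 (chr19:53528995-53529144): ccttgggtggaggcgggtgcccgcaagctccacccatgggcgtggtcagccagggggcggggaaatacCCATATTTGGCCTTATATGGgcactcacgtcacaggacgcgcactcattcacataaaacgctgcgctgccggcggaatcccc
The heat shock element and, after the values had been seen, the CArG box were searched on both strands in 250 bases before and 50 after each start. A heat shock element (GAANNTTCNNGAA or TTCNNGAANNTTC) was present in 198 of 32851 promoters (0.603%). By gene, it was present in 179 of 27025 (0.662%) and in 4 of 20 matched HSF1 targets (Chordc1, Hspd1, Hspe1 and Hsph1). A CArG box was present in 535 promoters (1.63%), and by gene in 488 of 27025 (1.81%). It was present in 2 of 20 matched immediate early genes (Egr2 and Srf, with 5 of the 26 promoters of the list). Among MAP kinase feedback genes it was present in 1 of 15 matched (Dusp5).

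On scaled TPM, genes that fell in immortalized and rose in senescent cells had smaller differences, with a median of -1.17. The genes that rose in immortalized and fell in senescent cells had a median of 1.95. Their order by size was not examined on the other 2 scales. There the median over all genes was -0.60 as deposited and -0.46 with the division undone, against -0.01 on scaled TPM. Gsr, glutathione reductase, encoded on chr8:33652523-33698163 (GRCm38), was at 79, 88.5 and 97.7 scaled TPM in immortalized MG132 libraries against 329, 378 and 375 under DMSO, and at 229, 211 and 187 in senescent MG132 libraries against 126, 129 and 132 under DMSO. All libraries were separated by treatment within each cell-state, and the log2 fold change was -2.02 in immortalized and 0.69 in senescent cells (difference -2.71, SE 0.20, limma adjusted p = 3.74e-09). Nlrc5, the transactivator of MHC class I genes, gave -0.99 in immortalized cells, where 1 MG132 library, at 62.4 scaled TPM, exceeded the lowest DMSO library, at 59.1. In senescent cells it gave 1.64 without overlap, at 22.6, 24.9 and 16 under MG132 against 5.76, 4.58 and 8.24 under DMSO.

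Hdac6, a deacetylase that carries ubiquitinated cargo to the aggresome, was at 7.13, 7.45 and 6.59 scaled TPM in immortalized MG132 libraries against 10.3, 9.62 and 9.54 under DMSO, and at 15.4, 17.9 and 15.8 in senescent MG132 libraries against 8.85, 10.8 and 10.6 under DMSO. The treatments did not overlap in either cell-state (difference -1.08, SE 0.15, limma adjusted p = 1.5e-05). The autophagy protease Atg4a gave -0.50 in immortalized and 0.68 in senescent cells, the kinase Mapk9 (JNK2) -0.35 and 0.63, and the neutral amino acid carrier Slc1a4 -0.60 and 0.64. These 4 genes, like Gsr and Nlrc5, were opposite on all 3 scales. The stress MAP kinase list that holds Mapk9 was mixed. Of its 25 genes, 8 had the higher and 11 the lower response in immortalized cells, against 18.8% and 19.6% of all genes. Opposite calls went to 2 with the rise in immortalized cells and to 1 with the fall. Relative to all genes, its median difference was -0.15 on scaled TPM, -0.20 as deposited and -0.18 with the division undone.

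Of 31 aggresome machinery genes, 6 had the higher and 8 the lower response in immortalized cells (median difference 0.03), and of 41 autophagy genes 6 and 8 (median -0.21). Both shares lie near the 18.8% and 19.6% of all genes. On TPM as deposited, 2 and 17 of the 31 and 1 and 28 of the 41 were called higher and lower, and with the division undone 2 and 13 of the 31 and 2 and 26 of the 41. Of 42 lysosomal genes, 25 had the higher and 3 the lower response (median 0.59). The counts were 2 higher and 9 lower on TPM as deposited and 3 and 9 with the division undone. Of all 13489 genes, 1047 were higher and 6580 lower as deposited, and 1235 and 5449 with the division undone. Relative to all genes, the lysosomal median was 0.60 on scaled TPM, 0.43 as deposited and 0.46 with the division undone.

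Interferon-stimulated genes fell mainly in immortalized cells. Of 32 tested, 1 rose and 14 fell in immortalized cells, and 6 rose and 3 fell in senescent cells. The difference was lower for 8 and higher for 1, against 19.6% and 18.8% of all genes, with a median of -0.79. Under DMSO all 32 were higher in immortalized than in senescent cells (median 2.20), against 29.3% of all genes. Under MG132 26 were higher (median 1.65), against 32.6%. On TPM as deposited the difference of responses was lower for 23 and with the division undone for 18, and higher for none. Relative to all genes the median difference of responses was -0.78, and -0.52 without the DMSO library of immortalized replicate 2. Trim30a, an interferon-induced TRIM protein, gave -1.15 in immortalized and 1.14 in senescent cells. Ribosome biogenesis genes had 13 lower and no higher differences among 31 (median -0.52), against 19.6% and 18.8% of all genes. As deposited 26 were lower and with the division undone 20, against 6580 and 5449 of all 13489 genes. Relative to all genes, their median difference was -0.52 on scaled TPM, -0.67 as deposited and -0.65 with the division undone. Among these genes, the nucleolar factor Nolc1 fell by 1.09 in immortalized cells and gave -0.03 in senescent cells. Ribosomal protein genes went the other way, with 38 of 39 rising in immortalized cells and 1 in senescent cells on scaled TPM and 18 higher differences (median 0.86). No difference was called for any of the 39 on the other 2 scales. Relative to all genes, their median difference was 0.87 on scaled TPM, 0.70 as deposited and 0.73 with the division undone.

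The median of the mitosis list moved with single libraries. Of 36 genes, 5 had the lower response in immortalized cells and none the higher one, against 19.6% and 18.8% of all genes. The median difference was -0.73. Without the DMSO library of immortalized replicate 2 the list's median lay 0.06 above that of all genes, and over the fits that each left out 1 library it ran from -1.16 to 0.06 relative to all genes. The lower genes numbered 14 on TPM as deposited and 11 with the division undone, and none was higher. On those scales 6580 and 5449 of all 13489 genes were lower. The share of lower genes in the list was below that of all genes on each scale. Foxm1, the transcription factor of late cell-cycle genes, was at 55.7, 74.1 and 51.9 scaled TPM in immortalized MG132 libraries against 95, 250 and 92.2 under DMSO, and at 25.2, 29.4 and 24.1 in senescent MG132 libraries against 19.7, 12.4 and 8.27 under DMSO. Treatments did not overlap, and the difference of -2.10 was -1.63 without that library, with limma adjusted p = 0.00309 and 0.00811.

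A run of neighbouring genes on distal chromosome 2, from Gm14399 to Zfp931 (chr2:175129493-178078476, GRCm38), held 4 of the first 6 genes that fell in immortalized and rose in senescent cells, and was singled out after these values were seen. Of 34 genes tested there, 8 carry Zfp symbols (zinc finger proteins) and most others numbered Gm symbols. The difference of responses was below 0 in all 34, from -3.09 to -0.11, and 30 were called lower and none higher (limma, Benjamini-Hochberg adjusted p under 0.05), against 19.6% lower over all genes. In immortalized cells none rose and 18 fell (median -0.70), and in senescent cells 26 rose and none fell (median 1.21), with 14 opposite. As deposited and with the division undone, 32 and 31 were called lower, against 6580 and 5449 of all 13489 genes. In proliferating cells 2 rose and 1 fell, and in quiescent cells 5 rose and none fell. All were expressed at low levels, with a highest group mean of 31.6 scaled TPM. Genes of this family can share reads, so the value of any single one is uncertain.

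Gm4631 was at 5.5, 4.4 and 7.31 scaled TPM in immortalized MG132 libraries against 15, 11 and 20.7 under DMSO, and at 31.6, 32.2 and 31 in senescent MG132 libraries against 6.99, 8.27 and 9.81 under DMSO. Gm14326 was at 6.79, 5.71 and 5.79 in immortalized MG132 libraries against 10.4, 7.92 and 13 under DMSO, and at 32.4, 25.8 and 29.4 in senescent MG132 libraries against 4.73, 6.49 and 6.89 under DMSO. The treatments did not overlap for either gene in either cell-state.

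**Figure D4:**
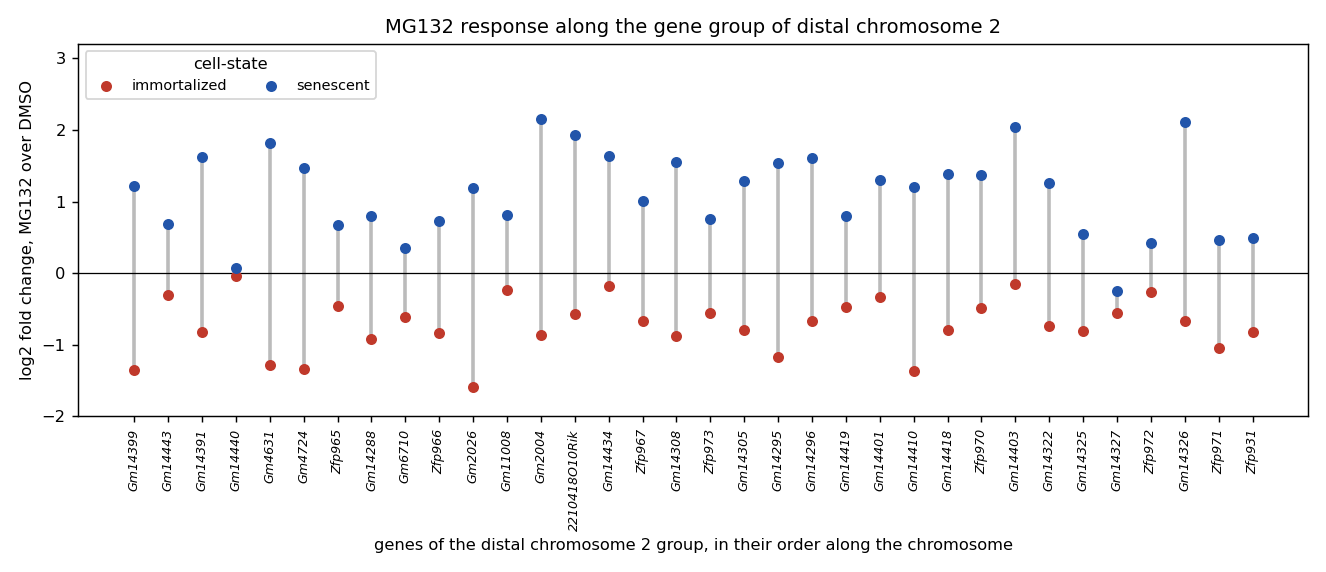
Log2 fold change of MG132 over DMSO in immortalized and senescent libraries for the 34 tested genes from Gm14399 to Zfp931, in their order along chromosome 2. No gene is called as rising in immortalized cells, where the median is -0.70, and none as falling in senescent cells, where the median is 1.21.

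**Figure D5:**
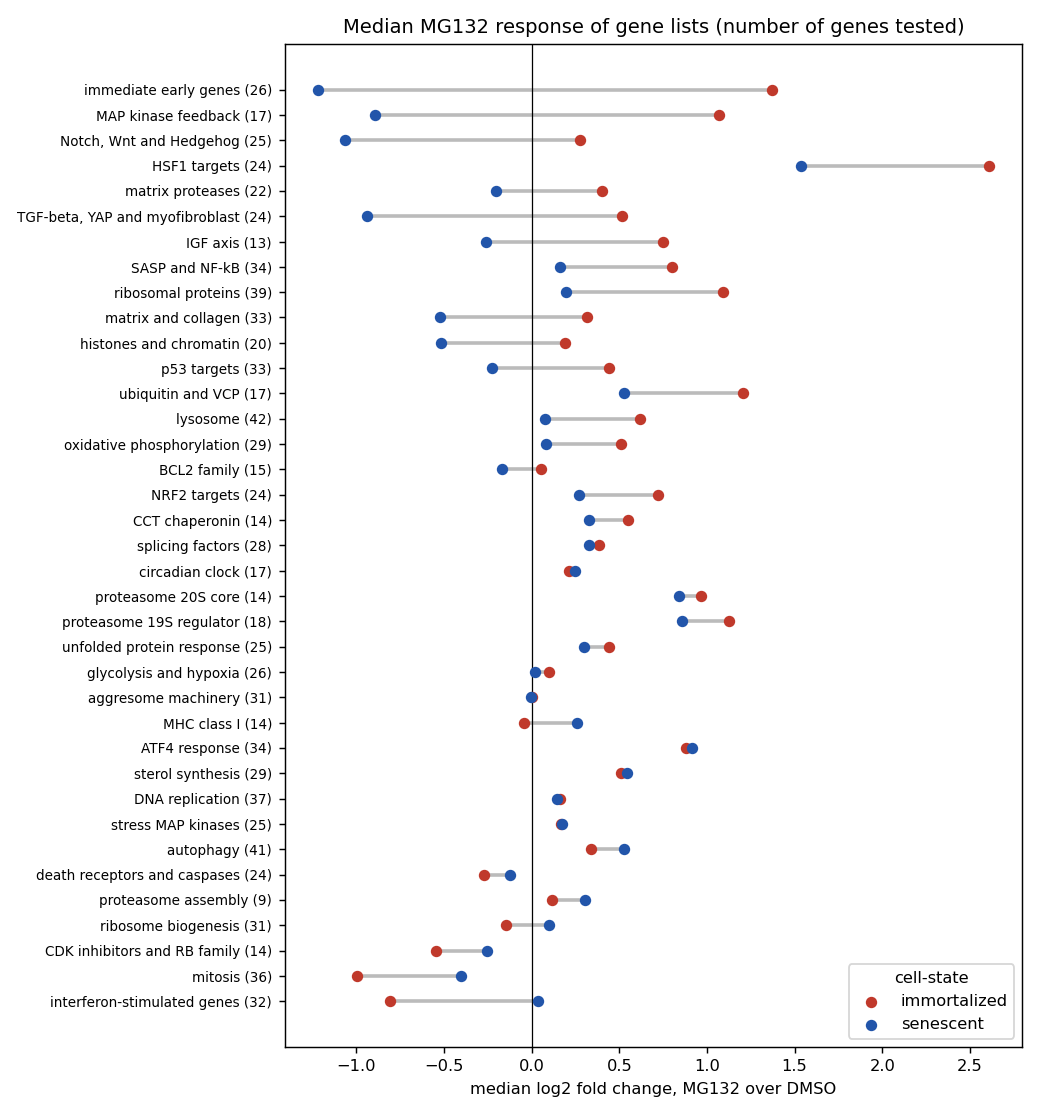
Median log2 fold change of MG132 over DMSO for gene lists in immortalized and senescent libraries on scaled TPM, with the number of genes tested in brackets. Immediate early genes lie at 1.37 in immortalized and -1.22 in senescent cells, while HSF1 targets lie at 2.61 and 1.54.

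Some large differences came from genes whose change lay almost wholly in 1 cell-state. Dio3, the deiodinase that inactivates thyroid hormone, was at 0.952 scaled TPM or less in all 6 immortalized libraries, and at 1.56, 0.828 and 1.03 in senescent MG132 libraries against 34.9, 89.5 and 91.3 under DMSO. Tchhl1, a relative of trichohyalin, was at 0.355 or less in the immortalized libraries, and at 20.1, 15.6 and 20.2 in senescent MG132 libraries against 0.103, 0.521 and 0.943 under DMSO. In both genes only the senescent libraries were separated by treatment. Krtap1-5, a hair keratin-associated protein gene, was at 52.5, 62.7 and 63.1 in immortalized MG132 libraries against 0.338, 0.225 and 0.154 under DMSO, and it ranged from 0.288 to 1.22 in the 6 senescent libraries. Bnip3, a mitophagy receptor, was at 7.77, 9.26 and 12 in immortalized MG132 libraries against 41.5, 36.7 and 55.8 under DMSO, and at 42.3, 46 and 41.6 in senescent MG132 libraries against 44.3, 37.2 and 51.7 under DMSO. In these genes the treatments overlapped in senescent and not in immortalized libraries, although the change of Krtap1-5 in senescent cells (-0.42) passed the test at limma adjusted p = 0.049.

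The level of a gene in the 2 cell-states can be read from the same libraries. Under MG132, immortalized and senescent cells differed for 9116 genes (67.6%), with 32.6% higher and 35.0% lower in immortalized cells, and under DMSO for 8105 genes (60.1%), with 29.3% and 30.8%. The median size of this difference was 0.63 under MG132 and 0.52 under DMSO on the log2 scale. For 804 genes the difference was called under both treatments with opposite sign, and for 5190 with the same sign. Of the 485 genes that rose in immortalized and fell in senescent cells, 362 were higher and 33 lower in immortalized cells under MG132, against 23 higher and 333 lower under DMSO. Of the 403 with the reverse pattern, 14 were higher and 319 lower under MG132, against 223 higher and 24 lower under DMSO. These counts share their libraries with the responses that chose the genes and are given as a description.

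The other 2 cell-states were used only to place these genes. Under MG132, 25.2% of genes rose and 24.8% fell in proliferating cells, and 25.3% rose and 26.9% fell in quiescent cells. Of the 485 genes, 150 rose and 76 fell in proliferating and 154 rose and 115 fell in quiescent cells. Of the 403, 30 rose and 80 fell in proliferating cells, whereas 148 rose and 46 fell in quiescent cells.

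Separation of single libraries uses the same 12 libraries as the calls of the difference, so it is given as a description only. It was also part of the rule by which genes were named. For 4432 genes (32.9%) every difference between an MG132 and a DMSO library of immortalized cells lay above, or every one below, every such difference in senescent cells. Of the 5188 called genes, 4184 were separated in this way.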

How the data were processed

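Poly(A) RNA of pellets with equal cell numbers, with ERCC spike-in added, was sequenced from 24 libraries, 3 for each of 8 groups. The authors deposited TPM. By their methods, counts were first normalized to the spike-in, then divided by gene length and brought to 1 total in each library. The methods name Cutadapt, kallisto and RUVseq, whereas in the submitters' notes the tools are HISAT2, StringTie, edgeR, cutadapt and FastQC. The sources used here do not say which of these produced the table. Every library summed to 1000000, so TPM keeps no depth and no counting interval is given. The table held 0 ERCC rows, and 0 columns were left unused.

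Libraries were divided by median-of-ratios size factors over 13243 genes above 0 in all 24. After addition of a pseudocount of 1, log2 values of 13489 genes were fitted in limma 3.58.1 (R 4.3.3, with trend), all 8 groups in 1 model without a replicate term. Benjamini-Hochberg adjustment ran over all genes tested, and genes with an adjusted p under 0.05 were called. The difference of responses was immortalized (MG132 minus DMSO) minus senescent (MG132 minus DMSO). To undo the division by the total, each library's factor was the most frequent exact ratio of its low values to those of a reference library. Each such factor rested on 462 to 708 genes. As a check, the values of 7995 genes then fell on whole steps (tolerance 0.02, multiples up to 60). Python 3.11.15 with numpy 2.4.6, pandas 2.3.3 and matplotlib 3.10.9 made tables and figures. The scripts were tested on simulated data.

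Named genes were called genes whose responses do not overlap, with a mean of at least 10 scaled TPM in 1 group, ranked by size of the difference (the first 6 of the opposite genes each way, the first 2 of each other class, and up to 2 each way of each list), with markers of the labels. Other list members were chosen after their values were seen. The gene lists and members were chosen with earlier results of these data known. As alternatives, the fit was repeated on unscaled TPM, with the division undone, with pseudocounts of 0.1 and 5, without a filter or with one at 5 TPM, on the 12 libraries, with a replicate block, without trend, with array weights, and without each library. Not every gene that the rule names is described.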

Additional observations from a re-analysis of the deposited data

Results flagged for a closer look

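The difference of the MG132 responses was itself tested, and it was called for 5188 genes by limma with a Benjamini-Hochberg adjusted p under 0.05. Of these, 485 rose in immortalized and fell in senescent fibroblasts, and 403 fell in immortalized and rose in senescent fibroblasts. The groups of 3 libraries were too small to look for single outlying libraries by a fixed rule.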

How the results depend on the processing

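The count of 5188 genes was 4670 on the 12 libraries alone, 4488 with a filter at 5 TPM, 5468 with none, 5183 without trend, and 5089 and 5224 with pseudocounts of 0.1 and 5. With the replicate block it was 4470 genes, 4383 of them shared with the 5188 and none with a changed sign. The labels do not say whether the replicate numbers pair the libraries. Correlations of same-numbered deviations from the group means were -0.14, 0.40 and 0.39 in immortalized and -0.23, -0.28 and -0.06 in senescent cells. Those of differently numbered libraries ran from -0.54 to 0.26 and from -0.22 to 0.32. These values cannot decide the question, since the deviations within a group of 3 libraries are not independent. Leaving out each library in turn gave 4548 to 5228 genes called, 2222 to 2597 higher, 2326 to 2631 lower, 753 to 925 opposite (416 to 523 with the rise in immortalized cells and 323 to 402 with the fall), 6313 to 7412 changed in immortalized and 5220 to 6416 in senescent cells. On TPM as deposited, 7627 genes were called, 1047 higher and 6580 lower, and 1525 were opposite (191 and 1334), while with the division by the library total undone 6684 were called, 1235 higher and 5449 lower, with 226 and 870 opposite. Of the 5188 genes, 3709 were also called as deposited and 3871 with that division undone, in either direction, and 389 and 167 had the other sign. With array weights 7940 were called, 4008 higher and 1775 opposite (965 and 810), and 9998 changed in senescent cells. The cause was not tested. The sign turned for Psmb5 (-0.17), Psmd8 (-0.11) and Herpud1 (-0.029) as deposited and for Psmb5 (-0.0023) with that division undone, none past the threshold. Psmb5 (0.43 to 0.57) and Ppp1r15a (-0.64 to -0.61) lost their calls without single libraries. Of 44 list medians, 11 moved by more than the spread between libraries without immortalized DMSO replicate 2, 12 without senescent DMSO replicate 1 and 1 to 6 without each other library. Depth is unknown, so low levels carry no counting error.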

Other observations

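Secreted factors and growth control held further opposite genes. Of 34 genes of the senescence-associated secretory and NF-kB list, 15 had the higher and 4 the lower response in immortalized cells (medians 0.80 in immortalized and 0.16 in senescent cells). On each of the other 2 scales 10 were higher and 8 lower. Relative to all genes, the median difference was 0.87 on scaled TPM, 0.90 as deposited and 0.87 with the division undone. The cytokine Il11 was at 94.3, 82.4 and 103 scaled TPM in immortalized MG132 libraries against 8.62, 3.65 and 7.97 under DMSO, and at 82.4, 65.4 and 88.7 in senescent MG132 libraries against 100, 163 and 170 under DMSO. The treatments did not overlap in either cell-state, and the difference was 4.51 (SE 0.41, limma adjusted p = 4.91e-08). Of 13 genes of the IGF axis, 7 had the higher and 1 the lower response in immortalized cells, against 18.8% and 19.6% of all genes. These numbers were 5 and 1 on TPM as deposited, and 6 and 1 with the division by the library total undone. In this list the binding protein Igfbp3 gave 2.61 in immortalized and -1.89 in senescent cells. Ddit4, an inhibitor of mTORC1, gave 1.88 and -0.72, and the transcription factor Cebpb 1.21 and -1.54. The linker histone H1f2 gave 1.51 and -2.75. Of 20 histone and chromatin genes 9 had the higher and 1 the lower response (6 and 1 on each of the other 2 scales). Over all genes the shares on scaled TPM were 18.8% and 19.6%. Igfbp3, Ddit4, Cebpb and H1f2, like Il11, were opposite on all 3 scales.

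Over all 340 Zfp genes tested, 28 were higher and 103 (30.3%) lower in immortalized cells, against 18.8% and 19.6% of all genes. The group was chosen after its values were seen. On TPM as deposited 4 were higher and 215 lower, against 1047 and 6580 of all 13489 genes. With the division by the library total undone 5 were higher and 189 lower, against 1235 and 5449.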
